A study of Mus musculus with 7 samples.

Results

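The promoters of 9 genes for mitogen- and stress-activated kinases (MSK), p90 ribosomal S6 kinases (RSK) and the MAP kinases and MAP kinase kinases upstream of them were examined in DNase-Seq data from cultured mouse podocytes, the epithelial cells of the glomerular filter. The genes are Rps6ka4 (Msk2), Rps6ka5 (Msk1), Rps6ka1, Rps6ka2, Mapk3, Mapk14, Mapk11, Map2k3 and Map2k6. They were taken by name, out of 21853 protein-coding genes, and every peak overlapping 500 nt on either side of one of their protein-coding transcription start sites (TSS) was considered. The 9 genes have 26 of the 54361 TSSs annotated in GENCODE vM21. TSSs of a gene lying less than 500 nt apart were joined into 1 promoter, which gave 17 promoters of 34345, numbered p1, p2 and so on from the most upstream in the direction of the gene. All 17 had a peak in every condition, as did 34293 of all promoters, and their windows were overlapped by 16 distinct NG peaks, 21 HG+NT peaks and 17 HG+miR-93 peaks. Several promoters of a gene shared their peaks, and the 17 promoters took 14 different sets of peaks.

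Differentiated, conditionally immortalised podocytes, which carry a thermosensitive T antigen, were growth-arrested in reduced serum. The 36 h conditions were NG, at 5 mM glucose, HG+NT, at 25 mM glucose after transfection of a non-targeting mimic at 50 nM, and HG+miR-93, at the same glucose after a miR-93 mimic at 50 nM. Each had 2 replicate libraries, and 1 library of genomic DNA served as the input. The NG cells received no mimic in the labels, so high glucose and transfection cannot be told apart in HG+NT over NG. The design asks whether high glucose alters DNaseI hypersensitivity and whether miR-93 reverses it, and for these genes the 2 comparisons were HG+NT over NG and HG+miR-93 over HG+NT.

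MSKs and RSKs are serine/threonine kinases that are phosphorylated and activated by MAP kinases. MSKs are nuclear, respond to ERK and to p38, and phosphorylate histone H3 on its tail as well as the transcription factor CREB, whereas RSKs respond to ERK. In podocytes, p38 signalling is known from models of glomerular injury, and MSK2 is the kinase on which the study centred. DNaseI cuts DNA that nucleosomes leave exposed, and active promoters are commonly such sites.

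The files hold a single peak list for each condition, in which the replicates are joined, so the replicate error is unknown and the conditions were compared without a test. The lists covered 2555, 2600 and 2585 Mb of the genome, so nearly every promoter has a peak, and peak height was used instead. Height is given as the summit pileup, which is the count of fragments over the summit brought to the sequencing depth of the input. Its exact Poisson interval (95%) covers only the error of counting. The libraries were 2.24, 3.85 and 5.15 times as deep as the input for NG, HG+NT and HG+miR-93, and values given in threes follow this order throughout. The input mean is the local average of the input at the summit, the fold is the pileup over it, each plus 1, and a promoter was compared with all 34293 by the percentile of its fold over the input. Median fold percentiles of 6 podocyte markers were 73.4, 74.2 and 73.7, those of 2 leukocyte markers were 34.8, 39.8 and 42.3, and those of 2 mesangial markers 60.3, 60.9 and 80.4. For 3 endothelial markers they were 55.5, 74.9 and 84.0 and for 2 tubular markers 47.1, 42.6 and 70.3, and the part of these shifts in the results on the kinase promoters was not tested.

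The mature miR-93-5p, as given by RefSeq for GRCm38.p6, is printed with its seed, bases 2 to 8, in capitals, because its mimic sets the last condition apart. The sequences under it are windows of the mouse genome on the strand of the mRNA, within annotated 3′ untranslated regions (UTR), with the match to the seed in capitals. The site in Rps6ka1 is at chr4:133847441-133847447, those in Rps6ka5 are at chr12:100550733-100550739 and chr12:100550357-100550363, and that in Mapk14 is at chr17:28747842-28747848.
mmu-miR-93-5p: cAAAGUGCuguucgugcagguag
Rps6ka1: ggagaggaagcagaaaGCACTTTtgggg
Rps6ka5, nearer the stop codon: ggttttatgtaatatgGCACTTTataaa
Rps6ka5, nearer the end of the mRNA: tataaacttatgcagaGCACTTTtattg
Mapk14: attttctgaattttgaGCACTTTgtgct
A match of 7 bases to this seed was present in 3 of the 9 kinase genes, and in 12.4% of 21022 genes with an annotated 3′ UTR. Rps6ka4 had none in the 729 nt of its longest annotated 3′ UTR. A shorter match to bases 2 to 7, CACTTT, was searched after this had been seen. It was present in 38.1% of genes and in 7 of the 9 kinase genes, and Rps6ka4 had it at chr19:6829390-6829395 and at chr19:6829290-6829295, printed in that order.
Rps6ka4, upstream: gggacacccatcaatgtCACTTTatgga
Rps6ka4, downstream: gcatttctgagatacatCACTTTtgtca
The upstream match in Rps6ka4 is followed by an A. A match of letters is a description of the sequence and was not set against any measurement of RNA here. The study itself reported a conserved miR-93 site, CACUUU, in the Rps6ka4 3′ UTR. By its account, mutating that site restored reporter activity. It also reported that miR-93 raised Msk2 mRNA in Argonaute complexes and lowered MSK2 protein.

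Over the 17 promoters, HG+NT over NG was past 1.5-fold lower at 2, both of them promoters of Mapk3, and at least 1.5-fold higher at none. Of all 34293 promoters, 25.9% were past 1.5-fold either way, 7.83% higher and 18% lower. HG+miR-93 over HG+NT was past 1.5-fold at none of the 17, against 11.4% of all promoters. The median ratio of the 17 was 0.926 for HG+NT over NG and 1.01 for HG+miR-93 over HG+NT, beside 0.914 and 0.962 over all promoters. The 95% interval of the ratio left out 1 at 1 and at none of the 17 promoters in these comparisons, against 4.67% and 3.04% of all. HG+miR-93 over NG, which is both comparisons joined, was past 1.5-fold lower at 3 of the 17 (Mapk3 p1, Mapk3 p2 and Map2k6) and higher at none, against 29.4% of all promoters past it, 22.3% lower and 7.08% higher. Its interval left out 1 at the Mapk3 promoters, against 6.81% of all. These 2 promoters shared their NG peak and had the same ratio, 0.518 (0.278 to 0.973). The median HG+miR-93 over NG was 0.893 over the 17 and 0.870 over all promoters, and the latter was inside that interval. The ratios of single members, plotted with their intervals beside the range of all promoters, thus lay for the most part on either side of 1 within counting error.

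**Figure D1:**
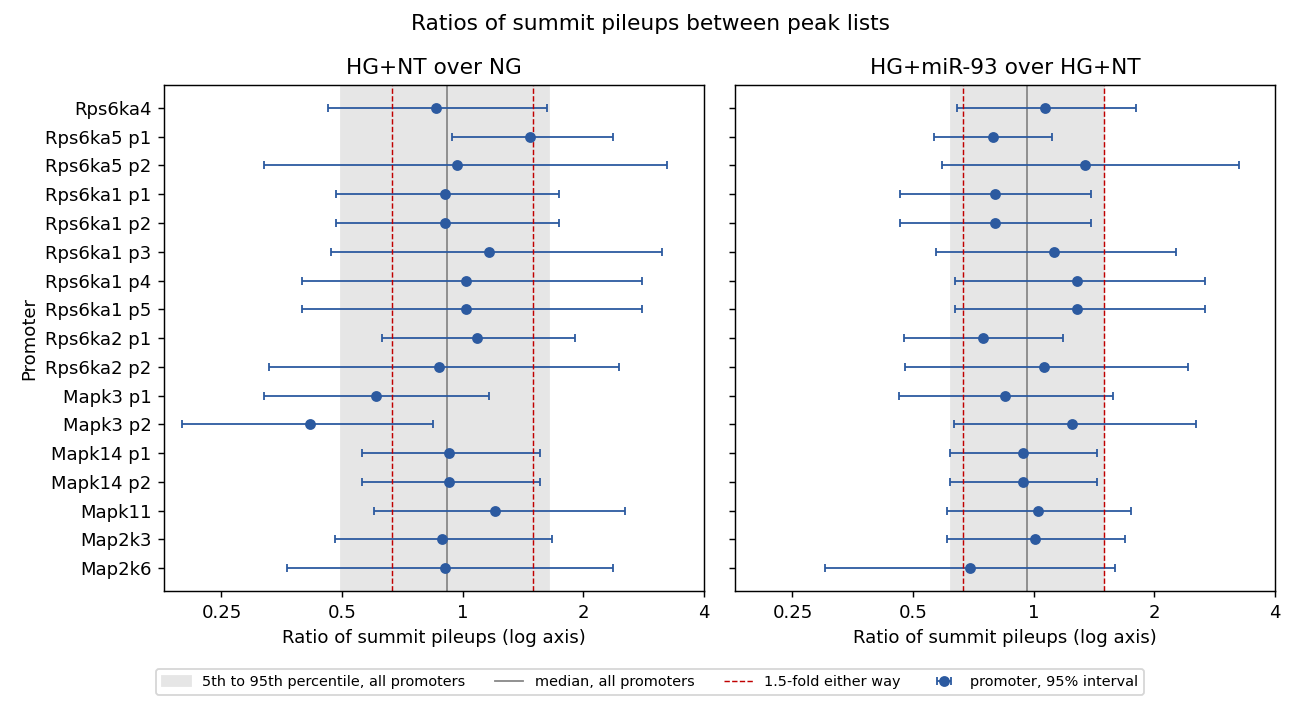
Ratios of summit pileups (log axis) at the 17 promoters, HG+NT over NG on the left and HG+miR-93 over HG+NT on the right, with 95% exact conditional binomial intervals (bars). The grey band spans the 5th to 95th percentile over 34293 promoters and the dashed lines mark 1.5-fold. Mapk3 p1 and p2, at 0.609 and 0.415, are the 2 points past a dashed line in the left panel, and no point passes one in the right panel.

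Were a difference undone by miR-93, the HG+NT pileup would be the highest or the lowest of the 3. This order was found at 7 of the 17 promoters, against 57.1% of all promoters. The 7 were Rps6ka4, both promoters of Rps6ka5, both of Rps6ka2, Mapk3 p2 and Map2k3. Both comparisons share the HG+NT list. At 1 of the 7, Mapk3 p2, an interval of either ratio left out 1.

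Rps6ka4 encodes MSK2, a nuclear kinase of histone H3 and CREB. Its promoter on chromosome 19 (minus strand, GRCm38) holds TSSs at 6840636 and 6840601, and 1 peak per list overlapped it. The summit pileup was 8.49 under NG (95% interval 5.11 to 13.3), 7.27 under HG+NT (4.83 to 10.5) and 7.77 under HG+miR-93 (5.55 to 10.6), and all intervals overlapped. The 3 values rested on 19, 28 and 40 fragments. HG+NT over NG was 0.857 (0.462 to 1.62) and HG+miR-93 over HG+NT was 1.07 (0.643 to 1.8). Both intervals contained 1, and ratios between the limits of an interval were not told apart at this depth. The fold over the input was 2.79, 2.30 and 2.19, at percentiles of 92.6, 86.3 and 86.2, which placed the Msk2 promoter in the upper range of all promoters in each condition. Its window was CpG-rich, as defined further below, and most of all promoters were not. Over the CpG-rich promoters the median pileup was 8.49, 6.75 and 6.22, the first of which equals the NG value of Rps6ka4. The −log10 q of the Rps6ka4 peak was 0 in each list.

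Promoters of chromosome 19 had higher median ratios to NG in both high-glucose lists than those of most other chromosomes. Their median HG+NT over NG was 1.09 over 1094 promoters. Divided by the median promoter pileup of its chromosome, the ratio of Rps6ka4 was 0.737 and not past 1.5-fold. The NG and HG+NT summits lay in a coding exon, 266 and 90 nt downstream of the nearest TSS, and the HG+miR-93 summit lay 85 nt upstream. The peaks spanned 1772, 7196 and 5045 bp. Among the peaks over the gene the promoter peak had the highest −log10 p in HG+NT, of 3, and in HG+miR-93, of 5, and was the second of 7 in NG, after a peak over the 3′ UTR.

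Nuak1, Zkscan17 and Ndrg4 were the genes whose 3 pileups were nearest to those of Rps6ka4 on a log2 scale. The first 2 had the same pileups as Rps6ka4 in all lists. The pileups of 5949 promoters (17.3% of all) were inside all 3 of its intervals, so likeness at this depth did not single out a gene. Within its window the Rps6ka4 promoter had 7 GC boxes (GGGCGG on either strand) and 1 match to the AP-1 motif TGANTCA. The latter, at chr19:6840700-6840706, is shown because it lay 18 nt from the HG+miR-93 summit, with the match in capitals on the strand of the gene.
Rps6ka4, AP-1 match: tccagccgccTGACTCAggccgcacgg
AP-1 matches were present in 21.5% of all promoter windows and at 4 of the 17.

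Rps6ka5 encodes MSK1, the other MSK, and its main promoter p1 had the highest pileup of the 9 genes in every list. On chromosome 12 (minus strand, TSSs at 100725120 and 100725028), the pileup was 12.5 under NG (8.31 to 18.1), 18.4 under HG+NT (14.4 to 23.3) and 14.6 under HG+miR-93 (11.5 to 18.3). The HG+NT value was the highest and its interval overlapped both others. HG+NT over NG was 1.47 (0.940 to 2.37), just short of 1.5-fold, and HG+miR-93 over HG+NT was 0.791 (0.564 to 1.11). Both ratio intervals contained 1. By fold over the input the peak was at percentiles of 91.3, 99.95 and 99.95, and by fold HG+NT over NG was 2.00.

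The HG+NT peak of Rps6ka5 p1 ranked 17th of 846027 by −log10 p, with a −log10 p of 10.3 and a −log10 q of 4.09, on 71 fragments over an input mean of 2.6. It was the only peak taken for the 17 promoters with a −log10 q of at least 2. Of all promoters, 0.0933%, 0.35% and 0.00583% reached such a value. In HG+miR-93 the peak ranked 9th of 900109 with a −log10 q of 0.26, and in NG 1673rd of 1036304 with a −log10 q of 0. The summits lay 336, 107 and 91 nt upstream of the TSS for NG, HG+NT and HG+miR-93, outside protein-coding transcripts, so the NG summit was at another position than the other 2. The input mean at the summit was 4 in NG and 2.6 in both others.

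The p1 window of Rps6ka5 had 7 GC boxes and 6 CCAAT boxes. Shown in capitals are the GC boxes nearest to the HG+NT summit, at chr12:100725229-100725234 and 5 nt away, and nearest to the HG+miR-93 summit, at chr12:100725202-100725207 and 6 nt away, the second of which overlaps a CCAAT box. The CCAAT box nearest to the NG summit, 7 nt away, is at chr12:100725461-100725465. All are on the strand of the gene.
Rps6ka5 p1, GC box at the HG+NT summit: gcagcggggcgGGGCGGctcctgaaacg
Rps6ka5 p1, GC box at the HG+miR-93 summit: gtcaggactagCCGCCCaatgggaacgg
Rps6ka5 p1, CCAAT box at the NG summit: ttccgcagtagCCAATcagaggtccgg
GC boxes were present in 50.9% and CCAAT boxes in 72.3% of all promoter windows, so their presence near a summit is a description of this promoter only.

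The internal promoter p2 of Rps6ka5 (TSS at 100575227) belongs to a transcript outside the basic annotation set. Its pileup was 2.68 (0.983 to 5.83), 2.60 (1.25 to 4.78) and 3.50 (2.07 to 5.53), which was below the medians over all promoters of 4.47, 4.41 and 4.28. The summits lay 1033 to 1359 nt downstream of the TSS. With the peak of the nearest summit, the p2 pileup was 2.68 (0.983 to 5.83), 0.779 (0.161 to 2.28) and 1.17 (0.428 to 2.54), and HG+NT over NG was 0.291 (0.0470 to 1.36), past 1.5-fold with an interval that contained 1. Between the MSK genes, Rps6ka5 p1 over Rps6ka4 was 1.47 under NG (0.794 to 2.79), 2.54 under HG+NT (1.62 to 4.08) and 1.88 under HG+miR-93 (1.26 to 2.83), so the Msk1 promoter was the higher in all lists and the interval left out 1 in the high-glucose lists. A pileup is a count at the summit of a peak and is not summed over the gene. The peaks differed in width, at 8612, 1124 and 3364 bp for Rps6ka5 p1 and 1772, 7196 and 5045 bp for Rps6ka4. The intervals do not cover the choice of the summit within a peak.

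**Figure D2:**
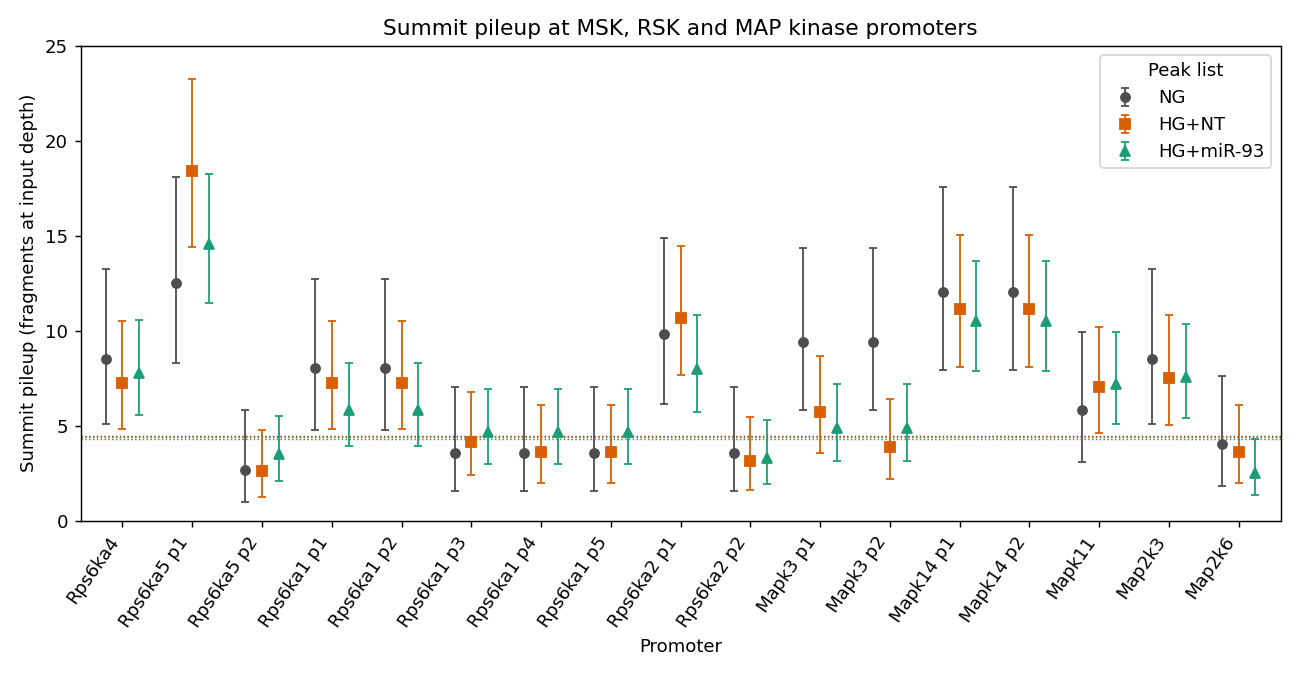
Summit pileup (fragments scaled to input depth) at each of the 17 promoters in NG (circles), HG+NT (squares) and HG+miR-93 (triangles), with 95% exact Poisson intervals (bars). Dotted lines mark the medians of all promoters, 4.47, 4.41 and 4.28. Rps6ka5 p1 in HG+NT, at 18.4, is the highest point, and Map2k6 in HG+miR-93, at 2.53, the lowest.

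RSKs are cytoplasmic and nuclear kinases of ribosomal protein S6 and of transcription factors, downstream of ERK. Rps6ka1 (RSK1; chromosome 4, minus strand) had 5 promoters. The peaks of p1 (TSSs at 133887797 and 133887784) also covered p2 (133886283) and had pileups of 8.04 (4.76 to 12.7), 7.27 (4.83 to 10.5) and 5.83 (3.93 to 8.32). Each step was lower than the one before it, and the ratios were 0.904 (0.483 to 1.74) and 0.802 (0.463 to 1.39), both with 1 inside. The 3 summits lay within 309 to 325 nt upstream of the TSS at an input mean of 3 in each list, so the same position was compared in all lists.

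The internal promoters of Rps6ka1 stood lower. p3 (133874731) had pileups of 3.57 (1.54 to 7.04), 4.15 (2.37 to 6.75) and 4.66 (2.99 to 6.94). p4 (133873039) and p5 (133872313) shared their peaks, with pileups of 3.57, 3.64 and 4.66. All 3 were near the median of all promoters. In HG+miR-93, 1 peak of 9855 bp served p3, p4 and p5, with a summit 2942 nt or more downstream of each TSS. Gm12977, an antisense gene, starts 483 nt from p5, and DNase-Seq does not tell the strands apart.

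Rps6ka2 (RSK3; chromosome 17, plus strand) had pileups of 9.83 (6.16 to 14.9), 10.6 (7.64 to 14.4) and 7.97 (5.72 to 10.8) at p1 (TSS at 7170115). HG+NT was the highest, and the ratios were 1.08 (0.631 to 1.91) and 0.748 (0.473 to 1.18), with 1 inside both. The summits lay 197, 45 and 286 nt upstream of the TSS, and the fold was at percentiles of 76.7, 95.7 and 87.4. At p2 (7227916), inside the gene, the pileup was 3.57, 3.12 and 3.30, and the NG summit lay 4635 nt upstream of the TSS. Rps6ka1 p1 over Rps6ka2 p1 was 0.818, 0.683 and 0.732 for NG, HG+NT and HG+miR-93, and each interval contained 1.

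**Figure D3:**
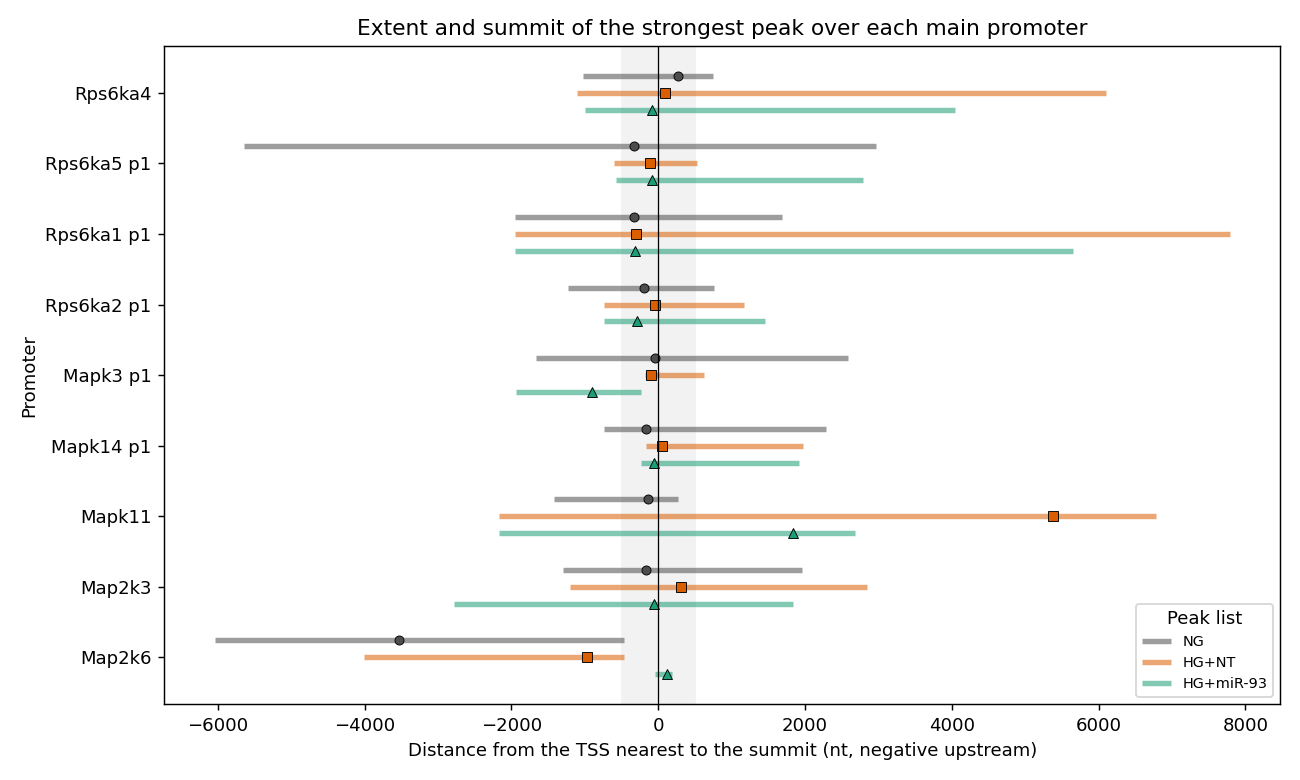
Extent (bars) and summit (symbols) of the strongest peak over the main promoter of each gene, as the distance in nt from the TSS nearest to the summit, negative upstream, for NG, HG+NT and HG+miR-93. Grey marks 500 nt on either side of the TSS. The summits of Rps6ka4, Rps6ka5 p1, Rps6ka1 p1, Rps6ka2 p1, Mapk14 p1 and Map2k3 lie inside it in all lists, and those of Mapk3 p1, Mapk11 and Map2k6 leave it in at least 1.

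Mapk3 encodes ERK1, which activates RSKs and MSKs, and its promoters were the only ones of the 17 past 1.5-fold in HG+NT over NG when the peak of highest fold was taken. At p1 (chromosome 7, plus strand, TSSs at 126759601 and 126759651) the pileup was 9.38 under NG (5.81 to 14.3), 5.71 under HG+NT (3.58 to 8.65) and 4.86 under HG+miR-93 (3.14 to 7.17). NG was the highest and the intervals of NG and both others overlapped. HG+NT over NG was 0.609 (0.320 to 1.16), past 1.5-fold with an interval that contained 1. HG+miR-93 over HG+NT was 0.85 (0.460 to 1.58), so HG+miR-93 was not nearer to NG than HG+NT was, and HG+miR-93 over NG was 0.518 (0.278 to 0.973).

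By fold over the input, Mapk3 p1 took another course. The fold was 3.05, 0.959 and 2.12, at percentiles of 95.9, 6.84 and 83.0, and by fold HG+NT over NG was 0.314 and HG+miR-93 over HG+NT 2.21. The input mean at the summit was 2.4 under NG, 6 under HG+NT and 1.76 under HG+miR-93. The NG and HG+NT summits lay 38 and 105 nt upstream of the TSS, and the HG+miR-93 summit 896 nt upstream. When the HG+miR-93 peak with the summit nearest to the TSS was taken instead, 97 nt upstream, its pileup was also 4.86, at a fold of 0.837 and an input mean of 6. The high fold in HG+miR-93 was thus that of the upstream peak, and with either peak the pileup was lower than in NG.

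Mapk3 p2 (TSSs at 126760597 and 126760749) had the same NG peak, whose summit lay 1034 nt upstream of it, and pileups of 9.38, 3.90 (2.18 to 6.42) and 4.86. HG+NT over NG was 0.415 (0.199 to 0.845), the only member ratio in this comparison with an interval that left out 1, and HG+miR-93 over HG+NT was 1.25 (0.632 to 2.54). The HG+NT summit lay 250 nt downstream in an intron, so different positions were compared. With the peak of the highest pileup in place of the highest fold, the ratio at p2 was 0.609 as at p1, with an interval of 0.320 to 1.16.

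Mapk14 and Mapk11 encode p38α and p38β, the stress-activated kinases upstream of MSKs. At Mapk14 p1 (chromosome 17, plus strand, 5 TSSs from 28691329 to 28691740) the pileup was 12.1 (7.95 to 17.5), 11.2 (8.08 to 15.0) and 10.5 (7.88 to 13.7). These were the second highest of the 9 genes in every list, and the ratios were 0.926 (0.559 to 1.56) and 0.940 (0.618 to 1.44). The same peaks covered p2 (28692568). The fold percentile of 7.02 under NG, 59.9 under HG+NT and 54.3 under HG+miR-93 was far below the pileup percentile of 93.9, 94.5 and 96.5, beside an input mean of 11, 5.8 and 6 at the summits. By fold HG+NT over NG was 1.64. With windows of 1000 nt on either side another NG peak was taken and the pileup ratio was 2.27. Slc26a8, an anion transporter gene, starts 1096 nt away in the opposite direction.

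Mapk11 (chromosome 15, minus strand, TSS at 89149628) had pileups of 5.81 (3.09 to 9.93), 7.01 (4.62 to 10.2) and 7.19 (5.06 to 9.91). The ratios were 1.21 (0.602 to 2.55) and 1.03 (0.608 to 1.75). The NG summit lay 142 nt upstream of the TSS, the HG+NT summit 5381 nt downstream in a coding exon and the HG+miR-93 summit 1838 nt downstream in an intron, so the high-glucose values were not those of the TSS itself. Promoters of chromosome 15 had a median HG+NT over NG of 1.16, and divided by the median of its chromosome the ratio of Mapk11 was 1.04. Mapk14 p1 over Mapk11 was 2.08 under NG (1.04 to 4.38), 1.59 under HG+NT (0.962 to 2.68) and 1.46 under HG+miR-93 (0.943 to 2.28).

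Map2k3 and Map2k6 encode MKK3 and MKK6, the dual-specificity kinases that activate p38. Map2k3 (chromosome 11, plus strand, TSS at 60932033) had pileups of 8.49 (5.11 to 13.3), 7.53 (5.04 to 10.8) and 7.58 (5.39 to 10.4). The ratios were 0.887 (0.481 to 1.67) and 1.01 (0.607 to 1.69), and the fold percentiles were 83.7, 96.4 and 97.7. Its summits lay 163 nt upstream, 315 nt downstream and 51 nt upstream of the TSS. Map2k3os, an antisense gene, starts 166 nt away.

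Map2k6 (chromosome 11, plus strand, TSS at 110399122) had the lowest main promoter of the 9 genes in every list when the peak of highest fold was taken, with pileups of 4.02 (1.84 to 7.63), 3.64 (1.99 to 6.10) and 2.53 (1.35 to 4.32). The ratios were 0.904 (0.365 to 2.37) and 0.695 (0.301 to 1.59). The summits lay 3530 and 970 nt upstream of the TSS in NG and HG+NT and 118 nt downstream in the 5′ UTR in HG+miR-93. Other peaks over the window had summits 44 nt upstream in NG and 142 nt upstream in HG+NT. With the summit nearest to the TSS, the pileup was 8.49 (5.11 to 13.3), 3.90 (2.18 to 6.42) and 2.53 (1.35 to 4.32). HG+NT over NG was then 0.459 (0.217 to 0.953), HG+miR-93 over HG+NT 0.649 (0.284 to 1.46) and HG+miR-93 over NG 0.298 (0.135 to 0.635), so the call at Map2k6 depended on which peak was taken. Map2k6 was then no longer the lowest in NG, where Mapk11 at 5.81 was.

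The Map2k6 window was not CpG-rich and had no GC box, and its AP-1 match at chr11:110398870-110398876, 249 nt upstream of the TSS, is printed with the match in capitals as that of the gene without a CpG-rich promoter.
Map2k6, AP-1 match: tctaagctgtTGATTCAggggtttttc
Map2k3 over Map2k6 was 2.11 under NG (0.910 to 5.30), 2.07 under HG+NT (1.06 to 4.24) and 3.0 under HG+miR-93 (1.57 to 6.13). With the peak of highest fold the MKK3 promoter was thus the higher in all lists, and the NG interval contained 1. With the peak of highest pileup or of nearest summit, both genes stood at 8.49 in NG.

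Ordered by the pileup of the peak of highest fold at their main promoters, the 9 genes ran from Rps6ka5 to Map2k6 in each list, a range of 3.11-fold under NG, 5.07-fold under HG+NT and 5.77-fold under HG+miR-93. With the nearest summit or the highest pileup, the lowest under NG was Mapk11 at 5.81 and Map2k6 was at 8.49. Rps6ka5, Mapk14 and Rps6ka2 were the 3 highest in every list. Of the 8 pairs of neighbours in this order, the interval of the ratio left out 1 at none in NG, at 1 in HG+NT, which was Rps6ka5 over Mapk14 at 1.65 (1.12 to 2.47), and at none in HG+miR-93. Apart from that 1 pair, the order of neighbouring genes, the ends included, was hence not resolved by the fragments counted. Under NG, Rps6ka5 over Mapk14 was 1.04 (0.589 to 1.83) and Mapk11 over Map2k6 was 1.44 (0.571 to 3.83). The summit lay within 500 nt of a TSS at 10, 9 and 8 of the 17 promoters for NG, HG+NT and HG+miR-93, against 52.6%, 49.9% and 49.8% of all, and it did so in all lists at 6 of the 17, against 30% of all.

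A window was taken as CpG-rich with an observed over expected CpG ratio of at least 0.6 and a GC content of at least 50%. The 9 CpG-rich promoters had a median pileup of 9.38 under NG, 7.53 under HG+NT and 7.77 under HG+miR-93, beside 8.49, 6.75 and 6.22 over 11370 CpG-rich promoters. The other 8 had medians of 3.57, 3.64 and 4.66, beside 3.57, 3.64 and 3.69 over 22923 such promoters. The groups overlapped, as the lowest CpG-rich promoter had 5.81, 5.71 and 4.86 and the highest of the others 9.38, 7.27 and 5.83. All genes but Map2k6 had a CpG-rich promoter. GC boxes were present at 11 of the 17, CCAAT boxes at 12, and the full cyclic AMP response element TGACGTCA, to which CREB binds, at none, against 2.65% of all promoter windows, which says only that these letters were not in these windows.

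Of 48 other genes of the cascade with 101 promoters, HG+NT over NG was at least 1.5-fold higher at 8 and lower at 20, against 7.83% and 18% of all promoters, and HG+miR-93 over HG+NT was higher at 6 and lower at 8, against 3.7% and 7.75%. The median ratios were 0.914 and 0.944, beside 0.914 and 0.962 over all promoters. HG+NT was the highest or lowest at 61 of the 101, against 57.1% of all promoters. Other kinases had 65 of the 101 promoters and held 6 of the 8 higher and 14 of the 20 lower calls in HG+NT over NG. The share of calls past 1.5-fold was near that of all promoters. The interval of the ratio left out 1 at 10 and at 9 of the 101, against 4.67% and 3.04% of all promoters.

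Among the other kinases, HG+NT over NG was largest at Mapk7 p2 (Mapk7 is ERK5), with pileups of 3.13, 14.5 and 8.94 and a ratio of 4.65 (2.12 to 12.1). The summits lay 1042 nt downstream of the TSS in NG and 3422 and 3508 nt upstream in the high-glucose lists. Mknk2 p2, of a kinase of the translation factor eIF4E, had pileups of 13.4, 21.8 and 14.4, a ratio of 1.63 (1.06 to 2.56) and summits 159 to 314 nt upstream of the TSS. Dusp4, a nuclear MAP kinase phosphatase on chromosome 8, had pileups of 6.70, 12.2 and 10.9 and a ratio of 1.82 (1.00 to 3.51), and chromosome 8 promoters had a median ratio of 1.13. The Dusp4 summit lay 1459 nt upstream of the TSS in NG and 56 nt downstream in HG+NT. Lower in HG+NT were both promoters of Mapkapk3, a kinase downstream of p38, with 12.5, 2.08 and 4.28 at p1, a ratio of 0.166 (0.0654 to 0.374), and 0.270 (0.128 to 0.539) at p2. Their NG summit lay 6800 nt or more upstream. H3f3b p1, of a gene for histone H3.3, had pileups of 10.3, 3.12 and 2.92 and a ratio of 0.303 (0.138 to 0.635), with summits 1357 to 2279 nt upstream.

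For HG+miR-93 over HG+NT, Map2k7 p3 and p4, of the JNK kinase MKK7, were higher and shared peaks with pileups of 4.02, 6.23 and 14.6 and a ratio of 2.34 (1.46 to 3.87), at summits up to 5644 nt from the TSS. Lower were Map3k20 p1 at 0.499 (0.259 to 0.940), Dusp5, an ERK phosphatase, at 0.554 (0.359 to 0.85) and Map2k1 (MEK1) at 0.612 (0.383 to 0.973). The Map3k20 p1 summit lay 17 nt upstream of the TSS in HG+NT and 3302 nt upstream in HG+miR-93. Dusp5 had pileups of 9.38, 14 and 7.77 with summits 180, 15 and 188 nt upstream of the TSS, and Map2k1 had 8.49, 11.4 and 7.0 with summits 123, 21 and 35 nt upstream. At Dusp5, Map2k1 and Mknk2 p2 the summits of all lists thus lay near the TSS and HG+NT was the highest of the conditions. At Mapk7, Mapkapk3, Map2k7 and Map3k20, in contrast, the peaks compared had summits kilobases apart. At Dusp4 the NG and HG+NT peaks compared also had summits at different positions. Dusp5, Map2k1 and Mknk2 p2 were named for a large ratio to or from HG+NT, so the high HG+NT value follows in part from that choice. HG+NT was the highest or lowest at 57.1% of all promoters.

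**Figure D4:**
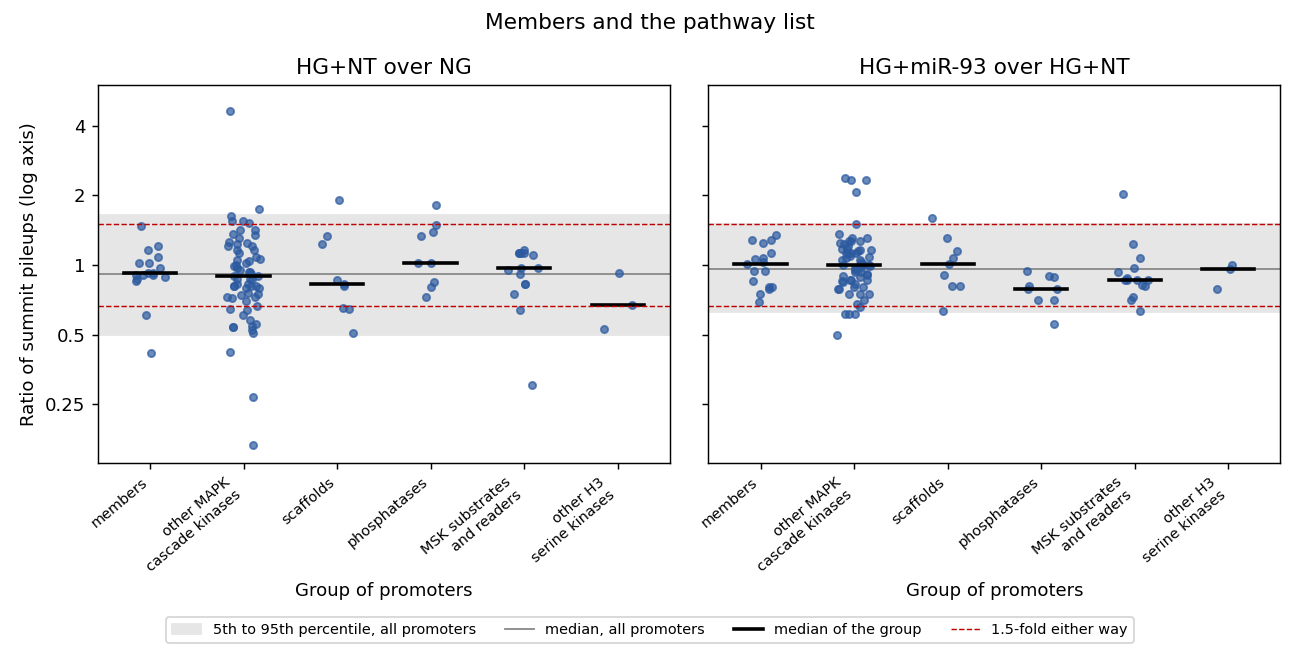
Ratio of summit pileups (log axis) at each promoter (points) of the 9 genes and of 5 groups of the pathway list, HG+NT over NG on the left and HG+miR-93 over HG+NT on the right, with the median of each group (black line). The grey band spans the 5th to 95th percentile of all promoters and dashed lines mark 1.5-fold. The medians of the 17 member promoters, 0.926 and 1.01, lie close to those of all promoters, 0.914 and 0.962.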

How the data were processed

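DNase-Seq libraries of podocytes (2 per condition, 1 input) were, per the labels and the methods, size-selected, sonicated, sequenced, demultiplexed with CASAVA 1.8.2, mapped to mm10 with Bowtie and filtered for duplicates. Peaks were called with MACS2 against the input, genomic DNA digested with less DNaseI, with settings not given in the sources used here. The authors deposited 1 joint list per condition with a score, a fold (ratio to the input), −log10 p and −log10 q values and a summit per peak, so replicates appear to have been pooled. From each fold and p, the fragment count of the summit and the local mean of the input were calculated, on a fragment length of 200 nt, for at least 99.999% of peaks, uniquely for 99.8% or more. Median fragments per summit were 6, 10 and 12, so intervals at single promoters are wide. The solving and the ratio intervals were tested on simulated data, and the overlaps against a direct count over the real TSSs of the members.

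The peak with the highest fold overlapping a promoter by at least 1 bp was taken. Ratios have 95% exact conditional binomial intervals. Members and lists were chosen with earlier results of these data known. All members, up to 3 pathway promoters each way per comparison with the largest ratios past 1.5-fold whose interval left out 1, and the 3 genes nearest to Rps6ka4 were named. A pathway promoter that this rule picks is not reported here. Alternatives were the peak choice, window, overlap, scaling, fold in place of pileup, basic TSSs, single TSSs and a 2-fold threshold. Motifs were searched on both strands of the promoter windows. Computation used scipy 1.17.1, pandas 2.3.3, pysam 0.24.0 and numpy 2.4.6 under Python 3.11.15.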

Additional observations from a re-analysis of the deposited data

Results flagged for a closer look

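Outside the promoters, the NG list held a peak over the 3′ UTR of Rps6ka4 at chr19:6829057-6829799, drawn to attention as a signal in data that the promoter comparisons do not use. The summit pileup was 178 (95% interval 161 to 197) on 399 fragments, over an input mean of 112, with a fold of 1.59 and a −log10 q of 3.0. It was the only 1 of the 1036304 NG peaks with an input mean of 100 or more, and the input mean there was 78.4 times its background. The peak of 743 bp began 28 nt beyond the annotated end of the gene and covered the last exon, chr19:6829085-6829724, in full. No peak was listed over the 3′ UTR in HG+NT or HG+miR-93, although a pileup of 99 at that input mean would have passed the p limit of the lists. Per the methods, the study cloned the 3′ UTR of this gene from podocyte DNA into a luciferase reporter, and whether DNA of that construct was in the libraries was not tested. The Rps6ka4 promoter window does not overlap it.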

How the results depend on the processing

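No ratio past 1.5-fold changed its side of 1 under the alternatives, but some ratios nearer to 1 did. At Mapk14 p1, HG+NT over NG went from 0.926 to 2.27 with 1000 nt and 1.64 by fold over the input, at Map2k3 from 0.887 to 1.21 by fold, and at Rps6ka2 p2 from 0.872 to 1.31 by highest pileup. By fold, HG+miR-93 over HG+NT went from 0.85 to 2.21 at Mapk3 p1, from 1.25 to 0.468 at Mapk3 p2 and from 1.06 to 0.635 at Rps6ka2 p2, and at Map2k6 it went from 0.695 to 1.07 with 1000 nt. At Rps6ka5 p2, already below 1, HG+NT over NG went from 0.969 to 0.291 by nearest summit. The count of 2 kinase promoters past 1.5-fold in HG+NT over NG was 4 with the peak of the nearest summit, 5 by fold over the input (3 higher, 2 lower), 4 of 26 with every TSS counted by itself and 1 at 2-fold. The count of 0 in HG+miR-93 over HG+NT was 1 by highest pileup, 1 by nearest summit (Map2k6 in both) and 4 by fold (1 higher, 3 lower). On the pathway list, the count of 28 in HG+NT over NG was 5 at 2-fold, and the count of 14 in HG+miR-93 over HG+NT was 9 by highest pileup, 8 with peaks covering at least 50% of the window, 23 by fold, 9 with basic TSSs and 6 at 2-fold. The other 41 of the counts under alternatives stayed within 1.5 times, among them those with pileups over the median of the chromosome or of all promoters. With peaks of a −log10 q of at least 2, only Rps6ka5 p1 in HG+NT was left, so no ratio could be given. No paired analysis was possible because the deposited lists join the replicates, and leaving out a replicate could not be run for the same reason. With 1 list per condition and 6 to 75 fragments per summit, intervals cover counting error only, and differences between replicates are unknown.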
